A study of Mus musculus with 6 samples.

Results

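HSP90 is a molecular chaperone that completes the folding of proteins already shaped by HSP70, with protein kinases, steroid hormone receptors and transcription factors among its clients. Its transcripts were described here through 9 genes, out of 25731 genes in the table: the HSP90 genes Hsp90aa1, Hsp90ab1, Hsp90b1 and Trap1, the co-chaperone genes Stip1, Ptges3, Ahsa1 and Cdc37, and Hsf1, the transcription factor of the heat shock response. The 9 genes were chosen by symbol, and the family was selected with the lower value of Hsp90ab1 in the comparison below already known. All 9 had a row in the table and all 9 passed the filter on low values, 1 RPKM or more (reads scaled to exon length and to the total of the library) as the mean over the 6 libraries.

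The samples were pools of 13 wild-type mouse zygotes from B6C3F1 oocytes and CD1 sperm. Zygotes of the ZP3 Trim-away group (3 libraries) received an injection at 15 h post hCG, which held mCherry-Trim21 mRNA at 0.2 mg/mL, a dextran labelled with Oregon green at 0.02 mg/mL and antibody against ZP3 at 1 mg/mL. Zygotes of the buffer control (3 libraries) received the same mRNA and dextran with the buffer of the antibody, so both groups carried foreign Trim21 mRNA. RNA was taken 10 h after injection, at the pronuclear stage. TRIM21 is a ubiquitin ligase that grips the constant part of an antibody, and the bound target is then degraded by the proteasome. The comparison thus asks which transcripts differ soon after an antibody against a zona pellucida protein meets TRIM21 inside the zygote. The buffer control held no antibody, so targeting of ZP3 and the presence of an antibody cannot be told apart.

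Chaperones of the HSP90 family work as dimers that open and close with ATP. In mammals HSP90 alpha (Hsp90aa1) and HSP90 beta (Hsp90ab1) serve the cytosol and nucleus, GRP94 (Hsp90b1) the endoplasmic reticulum and TRAP1 (Trap1) the mitochondrion. In unstressed cells HSP90 holds HSF1 inactive, and in mouse oocytes HSF1 is known as a maternal factor that drives HSP90 alpha. Before the embryonic genome is fully active, the zygote relies on mRNA and protein stored in the egg.

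The last codons of the HSP90 genes show how the paralogs differ and where their partners bind. The cytosolic pair ends in MEEVD, the peptide that co-chaperones such as STIP1 and the FKBP immunophilins hold with their tetratricopeptide repeats, and GRP94 ends in KDEL, the signal that returns proteins to the endoplasmic reticulum. The last 30 bases of each coding sequence were read from the GENCODE M21 transcripts (GRCm38), with the codons of the peptide in capitals before the stop codon.
Hsp90aa1: gacacatcacgcATGGAAGAAGTAGACtaa
Hsp90ab1: gatgcctcgcgcATGGAAGAGGTGGATtaa
Hsp90b1: aaggaatctacagagAAGGATGAATTGtaa
Over these 30 bases Hsp90aa1 and Hsp90ab1 differed at 7, of which 3 lay within the codons for MEEVD, all without changing the peptide. Trap1 ended in neither peptide. Over the whole coding sequence, Hsp90aa1 and Hsp90ab1 were identical at 76.3% of 2175 aligned bases, against 61.0% for Hsp90aa1 and Hsp90b1 and 56.5% for Hsp90aa1 and Trap1.

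None of the genes are neighbours on GRCm38. Hsp90aa1 (ENSMUSG00000021270) spans bases 110690605 to 110702728 of chromosome 12 and has 11 exons in its principal transcript, and Hsp90ab1 (ENSMUSG00000023944) spans bases 45567775 to 45573271 of chromosome 17, also with 11 exons. Hsp90b1 (ENSMUSG00000020048) lies on chromosome 10 and Trap1 (ENSMUSG00000005981) on chromosome 16, with 18 exons each.

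Reads of 72 bases cannot be placed where a gene matches a copy of itself, so each principal transcript was cut into all windows of 72 bases, and each window was looked up in the transcripts of all other annotated genes. Of the 2449 windows of Hsp90ab1, 27 occurred elsewhere (1.10%), in 3 processed pseudogenes. Of the 3210 windows of Hsp90aa1, 1724 occurred elsewhere (53.7%), likewise in 3 processed pseudogenes, led by Gm12346 with 45.7% and Gm5844 with 28.5% of the windows. The level of Hsp90aa1 is therefore uncertain where reads were shared or dropped. Gm5844 was listed at 1.91 to 2.79 RPKM in ZP3 Trim-away and 2.74 to 3.96 RPKM in the buffer control, and Gm12346 at 1.16 to 1.21 RPKM in ZP3 Trim-away and 0.776 to 1.39 RPKM in the buffer control. Gm6368, the pseudogene with the most windows of Hsp90ab1 (13), was listed at 0.414, 0.652 and 0.792 RPKM in ZP3 Trim-away, and at 1.28, 1.37 and 1.13 RPKM in the buffer control. These low values were lower without overlap, as were 6.34% of all genes tested. Gm13498, with 11 windows, overlapped between the groups. It was listed at 0.117, 0.411 and 0.151 RPKM in ZP3 Trim-away, and 0.174, 0.0231 and 0 RPKM in the buffer control. Gm7198, with 3 windows, stayed at or under 0.0609 RPKM. The search covered exact matches in annotated genes, and copies that are not annotated were not searched.

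**Figure D1:**
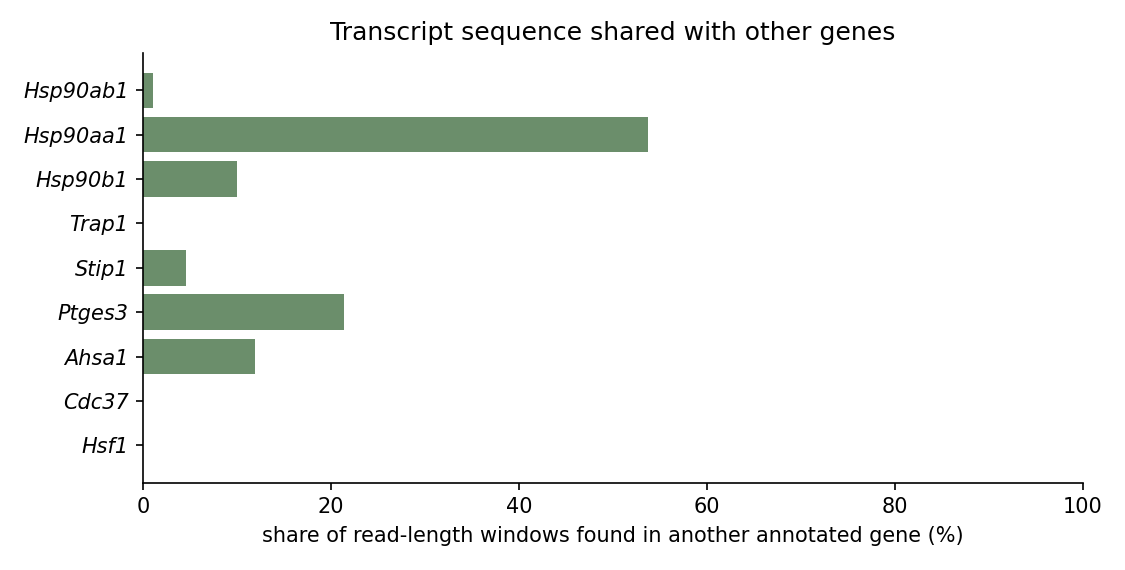
Percent of the 72-base windows of each gene's principal transcript that occur exactly in a transcript of another annotated gene (GENCODE M21). Hsp90aa1 shared 53.7% of its windows and Hsp90ab1 1.10%, and the bars of Trap1, Cdc37 and Hsf1 are at 0.

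Among the other genes, Ptges3 shared 21.4% of its windows, nearly all with Ptges3-ps. Ahsa1 shared 11.9% with Gm49207, an annotated long noncoding RNA, and Hsp90b1 shared 10.0%, mostly with the pseudogene 1810014B01Rik. Stip1 shared 4.57% with Cfap20, and Trap1, Cdc37 and Hsf1 shared none. Ptges3-ps was the only row beside 3 of the HSP90 genes that the table held under a symbol starting with Hsp90 or under the name of a pseudogene of the family, and it was listed at 5.03, 1.06 and 2.04 RPKM in ZP3 Trim-away and 1.80, 1.87 and 0.120 RPKM in the buffer control.

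The libraries held 15291005 to 15746638 reads in ZP3 Trim-away and 17378253 to 20005724 reads in the buffer control, and a count of 0 allowed up to 0.15 to 0.196 RPKM for a gene with 1 kb of exon, which covers counting error only. More genes were listed above 0 in ZP3 Trim-away (18794 to 20316) than in the buffer control (13202 to 14501). The deposited columns of control replicates 2 and 3 were means with replicate 1, and the libraries were separated before use. Over 9965 genes tested, the median log2 fold change was 0.22 and 67.3% of values were positive. By limma, 1942 of these genes had an unadjusted p under 0.05, in either direction. Transcripts of 15 zygote markers summed to 9307 to 10981 RPKM in ZP3 Trim-away and 6889 to 8273 RPKM in the buffer control, and 13 of 15 had a positive log2 fold change. Of 18 cumulus and granulosa markers, 15 were in the table, with sums of 19.8 to 30.3 RPKM in ZP3 Trim-away and 8.89 to 20.2 RPKM in the buffer control, and Foxl2, Fshr and Lhcgr stayed at or under 0.350 RPKM. Of these 15 markers 5 were tested, with a median log2 fold change of 1.10 and no call by limma (2 higher and 1 lower at an unadjusted p under 0.05). Inha and Tnfaip6 passed the filter on low values through their ZP3 Trim-away values, which raises this median by itself. Without a filter the median of the 15 markers was 0.17, beside 0.10 over all genes. Tnfaip6 had 3.57, 6.95 and 6.92 RPKM in ZP3 Trim-away, against 0, 0 and 1.68 RPKM in the buffer control, and Inha 2.32, 2.80 and 7.49 RPKM in ZP3 Trim-away, against 0 in every control. Cyp11a1, which was not tested, had 0.489, 3.56 and 1.28 RPKM in ZP3 Trim-away, against 0 in every control. Cyp19a1 went the other way, at 6.43, 6.13 and 4.599 RPKM in ZP3 Trim-away, against 9.95, 8.04 and 10.03 RPKM in the buffer control. Sums of the sperm and of the blood markers stayed at or under 2.39 RPKM in ZP3 Trim-away and 7.77 RPKM in the buffer control. The antibody acts on protein, so Zp3 mRNA does not measure the depletion: it was at 46.5, 58.9 and 52.7 RPKM in ZP3 Trim-away, and 31.3, 55.6 and 39.9 RPKM in the buffer control. Trim21, which the injected mRNA carries, was lower, at 24564 to 29588 RPKM in ZP3 Trim-away and 39345 to 48720 RPKM in the buffer control (log2 fold change −0.73 ± 0.10 SE, limma adjusted p = 0.0274, range over the alternatives other than quantile normalization 0.000515 to 0.213), and it was not called when any 1 Trim-away library was left out. Quantile normalization gives genes of the same rank the same value in every library, and there the log2 fold change of Trim21 was 0. It was negative in 15 of 16 alternatives. The part of these differences in the results below was not tested. In pools of zygotes, fewer zygotes carrying a transcript and less of it per zygote cannot be told apart.

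Cytosolic HSP90 beta was the member with the widest gap between the groups on the log2 scale. Hsp90ab1 was at 81.8, 89.2 and 110.0 RPKM in the ZP3 Trim-away libraries, against 203.8, 177.1 and 185.9 RPKM in the buffer control libraries. All 3 Trim-away values lay below all 3 control values, and the nearest libraries of the groups were 110.0 and 177.1 RPKM. The means were 93.7 ± 14.6 RPKM in ZP3 Trim-away and 189 ± 13.6 RPKM in the buffer control (SD, n = 3 each), a ratio of 0.496 and a log2 fold change of −1.01 ± 0.14 (SE, on the log2(RPKM + 1) scale). This rested on 3862 to 5044 reads per library in ZP3 Trim-away and 9689 to 11347 reads in the buffer control. The gene kept a place among the more abundant transcripts of the zygote, at percentile 94.5 to 96.3 of the genes tested in ZP3 Trim-away and 98.0 to 98.5 in the buffer control.

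Hsp90ab1 passed the test over all genes (limma, Benjamini-Hochberg adjustment at 0.05), and this is the value that chose the family, so it is a description here. It was the only member called, 1 lower and 0 higher by limma, with 2 higher at an unadjusted p under 0.05. Over all genes, 0.0401% were called lower and 0.592% higher, and 1942 of 9965 had an unadjusted p under 0.05 in either direction. The log2 fold change stayed negative in 16 of 16 alternatives (−1.32 to −0.92) and was called in 11 of them. The 5 fits without a call included those that left out a Trim-away library (−0.92, −0.98 and −1.13 without replicates 1, 2 and 3) and the fit with no filter on low genes. Relative to the median of all genes tested it was −1.23, and the scalings that moved that median to between −0.02 and 0.07 gave −1.32 to −1.20.

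**Figure D2:**
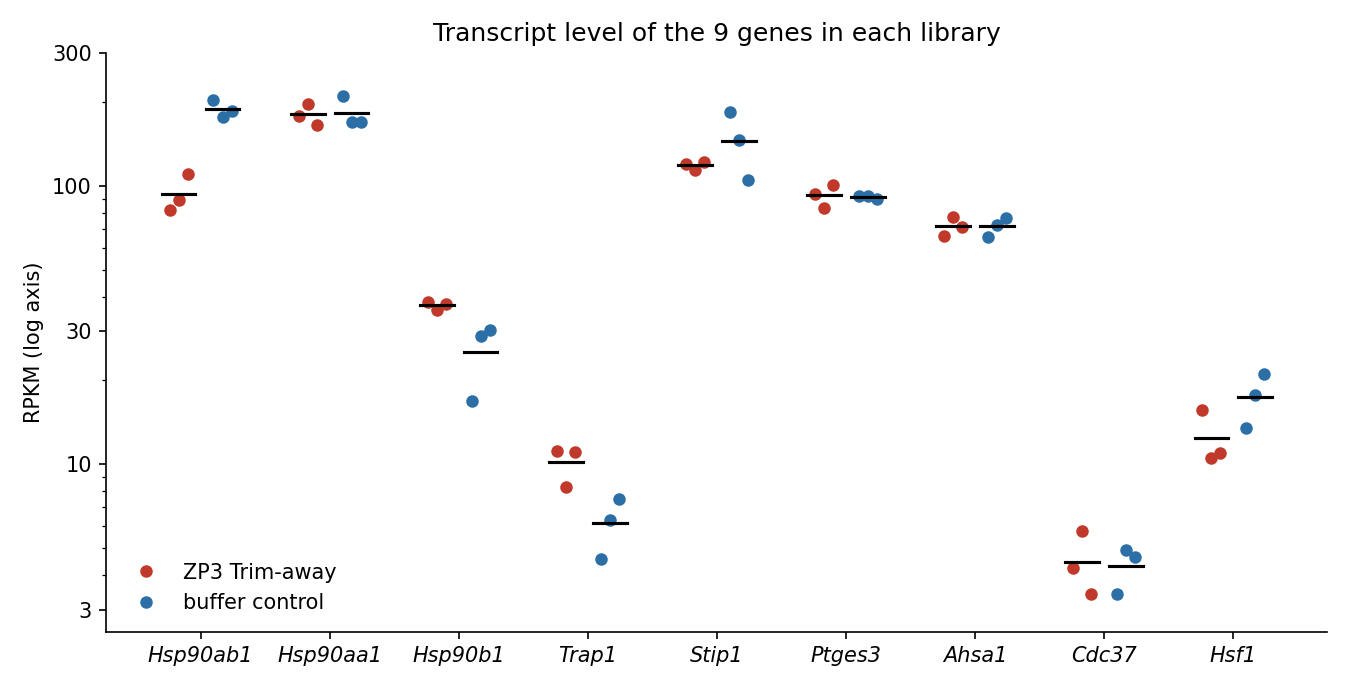
Level of each of the 9 genes in RPKM on a log axis, 1 point per library, with ZP3 Trim-away (red) left of the buffer control (blue) and the group mean as a line. The groups stood clear of each other for Hsp90ab1, lower at 93.7 against 189 RPKM, and for Hsp90b1 and Trap1, higher at 37.2 against 25.3 RPKM and 10.2 against 6.13 RPKM, and overlapped for the other 6 genes.

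Hsp90aa1, the stress-inducible cytosolic paralog in many cell types, had 178.7, 197.0 and 165.9 RPKM in ZP3 Trim-away, against 209.5, 169.6 and 169.8 RPKM in the buffer control. The highest value was control replicate 1 and the lowest Trim-away replicate 3, and the groups overlapped. The means were 181 ± 15.6 RPKM in ZP3 Trim-away and 183 ± 23.0 RPKM in the buffer control (log2 fold change −0.02 ± 0.13 SE). With the exon length trend removed the log2 fold change was −0.25. Percentiles were 97.5 to 97.9 in ZP3 Trim-away and 97.8 to 98.5 in the buffer control.

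HSP90 alpha and beta are close relatives, and their ratio within a library does not depend on the scale of that library. The ratio of Hsp90ab1 to Hsp90aa1 was 0.458, 0.453 and 0.663 in the ZP3 Trim-away libraries, against 0.973, 1.04 and 1.09 in the buffer control libraries. HSP90 alpha and beta transcripts were thus listed at about equal levels per length in the controls, while alpha led in every Trim-away library. Hsp90ab1 made up 34.1 ± 4.95% of the summed cytosolic HSP90 RPKM in ZP3 Trim-away and 50.9 ± 1.49% in the buffer control (SD, n = 3 each). The sum of both genes was 260.5, 286.3 and 275.9 RPKM in ZP3 Trim-away, against 413.3, 346.7 and 355.7 RPKM in the buffer control, without overlap. The ratio holds Hsp90ab1 and so shares the choice described above, and its level depends on the shared windows of Hsp90aa1.

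**Figure D3:**
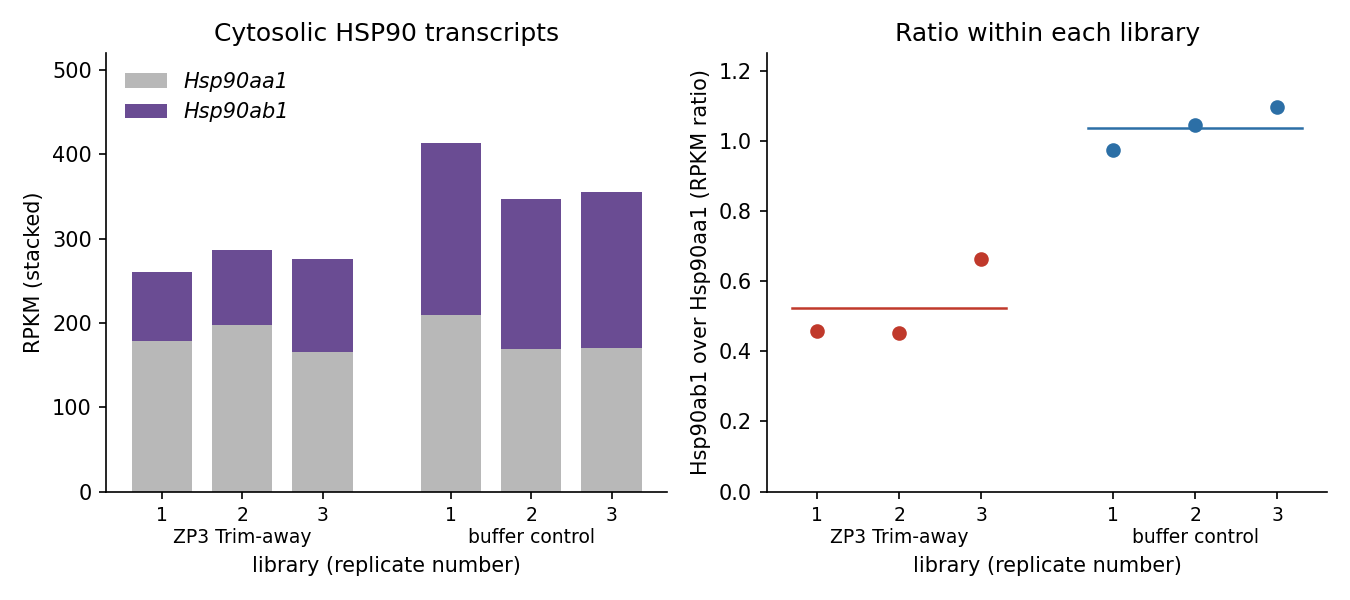
Left, RPKM of Hsp90aa1 and Hsp90ab1 stacked for each library; right, the RPKM ratio of Hsp90ab1 to Hsp90aa1 in each library, with the group mean as a line. The 3 ZP3 Trim-away libraries had ratios of 0.453 to 0.663 and the 3 buffer control libraries 0.973 to 1.09.

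GRP94 folds secreted and membrane proteins such as integrins and Toll-like receptors in the endoplasmic reticulum. Hsp90b1 was at 38.1, 35.9 and 37.6 RPKM in ZP3 Trim-away, against 16.9, 28.9 and 30.2 RPKM in the buffer control. The Trim-away values lay close together and above all 3 controls, of which replicate 1 was the lowest. The coefficient of variation was 3.08% in ZP3 Trim-away and 29.1% in the buffer control. Over all genes tested the median SD on the log2(RPKM + 1) scale was 0.202 in ZP3 Trim-away and 0.436 in the buffer control. Closer values in ZP3 Trim-away were thus common and not particular to Hsp90b1. The log2 fold change was 0.58 ± 0.22 (SE), and 0.32 without control replicate 1, and the gene was not called. It was called in 1 of 16 alternatives, the columns as deposited, in which control replicate 1 enters each control value and in which Trap1 and Stip1 were called too.

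TRAP1 is the HSP90 of the mitochondrial matrix. Trap1 had 11.2, 8.28 and 11.0 RPKM in ZP3 Trim-away, against 4.56, 6.31 and 7.51 RPKM in the buffer control. Every Trim-away value was above every control value, but the lowest Trim-away and the highest control value were 8.28 and 7.51 RPKM. It rested on 218 to 453 reads per library, the fewest of the family, with a log2 fold change of 0.66 ± 0.26 (SE). It was not called, and with the exon length trend removed it was 0.32. Together Hsp90b1 and Trap1 were the 2 members without overlap on the higher side and Hsp90ab1 the 1 member on the lower side, where 20.3% and 6.34% of all genes tested had no overlap. Hsp90b1 made up 10.9% to 12.3% of the RPKM summed over the 4 HSP90 genes in ZP3 Trim-away and 3.88% to 7.69% in the buffer control. The sum holds Hsp90ab1, the gene that chose the family, so a lower Hsp90ab1 raises this percentage by itself.

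STIP1, also called HOP, bridges HSP70 and HSP90 by binding the ends of both. Stip1 (ENSMUSG00000024966, chromosome 19) was at 119.7, 114.1 and 121.4 RPKM in ZP3 Trim-away, against 183.7, 146.3 and 105.2 RPKM in the buffer control. The Trim-away libraries lay close together, and the controls spread on both sides of them. A wider spread in the buffer control was common over all genes tested. The log2 fold change was −0.26 ± 0.19 (SE). It was −0.07 without control replicate 1 and −0.47 without control replicate 3, and it was not called. With the exon length trend removed it was −0.64. Per unit of cytosolic HSP90, Stip1 was at 0.433 ± 0.0310 in ZP3 Trim-away and 0.387 ± 0.0801 in the buffer control (RPKM ratio, SD, n = 3 each), and the groups overlapped. The divisor holds Hsp90ab1, the gene that chose the family. Stip1 itself averaged 118 RPKM in ZP3 Trim-away and 145 RPKM in the buffer control.

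The co-chaperones of the later steps of the cycle overlapped between the groups. Ptges3 encodes p23, which steadies the closed dimer, and had 93.5, 83.6 and 100.5 RPKM in ZP3 Trim-away and 91.7, 91.6 and 89.8 RPKM in the buffer control (log2 fold change 0.02 ± 0.12 SE). Ahsa1 encodes AHA1, which speeds ATP hydrolysis by HSP90, and had 66.1, 77.1 and 71.3 RPKM in ZP3 Trim-away and 65.7, 72.6 and 76.4 RPKM in the buffer control (−0.00 ± 0.13 SE). In both genes the values of one group lay among those of the other. Under median ratio scaling, quantile normalization and removal of the exon length trend, Ptges3 was at −0.17, −0.16 and −0.36 and Ahsa1 at −0.19, −0.20 and −0.21.

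CDC37 delivers protein kinases to HSP90. Cdc37 had the lowest level of the family in both groups, at 4.22, 5.77 and 3.41 RPKM in ZP3 Trim-away and 3.42, 4.93 and 4.63 RPKM in the buffer control (log2 fold change 0.03 ± 0.29 SE). The lowest and the highest value both belonged to ZP3 Trim-away. RPKM divides by all annotated exon bases, which are 8194 for Cdc37 against a coding sequence of 1140, and a median of 3626 over all genes tested. The low level per length thus carries the length of the annotated exons. The gene still had at least 427 reads in each library. Its principal transcript has 7851 bases, close to its annotated exons. Hsf1 has 7099 annotated exon bases against a principal transcript of 2084, and Ahsa1 4377 against 1377. The levels per length of Hsf1 and Ahsa1, and their places in the order below, carry this limit too.

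Hsf1 (ENSMUSG00000022556, chromosome 15) was at 15.6, 10.6 and 11.0 RPKM in ZP3 Trim-away, against 13.5, 17.8 and 21.04 RPKM in the buffer control. Trim-away replicate 1 lay above control replicate 1, and the other 2 Trim-away libraries lay below all controls. The log2 fold change was −0.46 ± 0.24 (SE), negative in 16 of 16 alternatives and called in 0 of them.

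**Figure D4:**
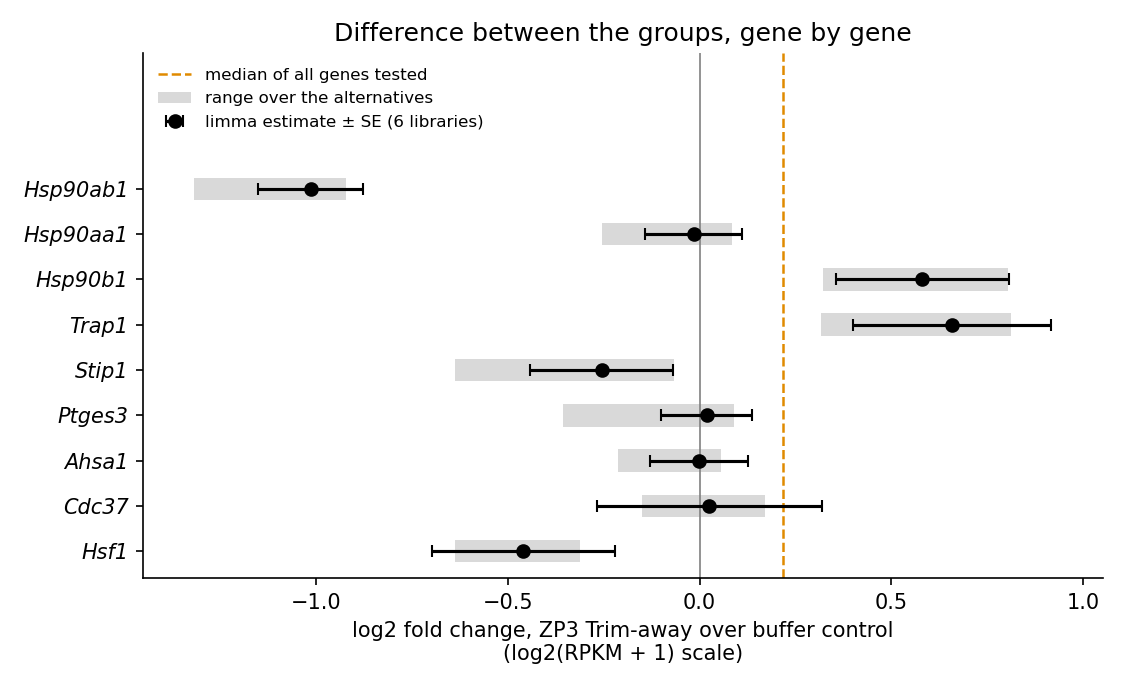
Log2 fold change of each gene, ZP3 Trim-away over buffer control, as the limma estimate with its SE (points and bars) and as the range over the alternatives (grey, 16 for each gene, 15 for Trap1 and Cdc37). Hsp90ab1 lay at −1.01 with a range of −1.32 to −0.92, and 2 of 9 genes, Hsp90b1 and Trap1, lay right of the median of all genes tested at 0.22 (dashed).

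The order of the 9 levels per length differed between the groups in the place of Hsp90ab1. In ZP3 Trim-away it ran Hsp90aa1, Stip1, Hsp90ab1, Ptges3, Ahsa1, Hsp90b1, Hsf1, Trap1 and Cdc37, and the ranges of neighbours overlapped for Hsp90ab1 and Ptges3 and for Hsf1 and Trap1. In the buffer control it ran Hsp90ab1, Hsp90aa1, Stip1, Ptges3, Ahsa1, Hsp90b1, Hsf1, Trap1 and Cdc37. There the ranges overlapped between Hsp90ab1 and Hsp90aa1, Hsp90aa1 and Stip1, Hsp90b1 and Hsf1, and Trap1 and Cdc37. Hsp90ab1 was thus at rank 3 in ZP3 Trim-away and rank 1 in the buffer control, where its lead was within the spread. The median log2 fold change of the 9 genes was −0.00, beside 0.22 over all genes tested, and 4 of the 9 values were positive.

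The 5 genes whose pattern over the 6 libraries was most like that of Hsp90ab1 were Brf2, Ccdc6, Pard3, Troap and Nup98, with Pearson r of 0.986 to 0.995 on log2(RPKM + 1) among the 3459 genes that averaged 10 RPKM or more. Ccdc6 had 198.5, 198.0 and 237.4 RPKM in ZP3 Trim-away, against 443.7, 380.2 and 423.5 RPKM in the buffer control. The 6 libraries fall into the 2 groups, so these values describe a shared gap between groups and carry no test. Hsp90aa1 stood at r = 0.06 and rank 1032 in the same list. The 5 genes most like Hsp90aa1 were Sec13, Smco4, Cops8, Patj and Pcyt1b (r of 0.930 to 0.965), which like Hsp90aa1 were highest in control replicate 1.

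The network around the 9 genes was followed through 6 lists of genes, written with earlier results of these data known, in which 1 gene was called. The counts of each list at an unadjusted p under 0.05 stand beside 1942 of 9965 genes tested, in either direction. Of 33 other co-chaperones of HSP90, 31 were in the table and 26 were tested. No gene was called by limma with adjustment over all genes (5 higher and 0 lower at an unadjusted p under 0.05), and 18 of 26 log2 fold changes were positive, where 67.3% of all genes tested were. Of the 26, 6 (23.1%) had no overlap on the higher and 0 on the lower side, beside 20.3% and 6.34% of all genes tested. Their median was 0.09, below the 0.22 of all genes tested. Nudc, a dynein partner with the highest mean of the list over the 6 libraries, had 146.2, 92.7 and 93.2 RPKM in ZP3 Trim-away, against 97.9, 85.5 and 119.1 RPKM in the buffer control, and shared 29.9% of its windows with other genes. Ttc4, whose tetratricopeptide repeats bind HSP90, had 15.1, 14.2 and 16.3 RPKM in ZP3 Trim-away, against 6.63, 9.88 and 5.84 RPKM in the buffer control (log2 fold change 0.97 ± 0.24 SE, limma adjusted p = 0.0806, range over the alternatives 0.00170 to 0.309). The groups did not overlap, and the gene did not pass the test. Ruvbl2, a subunit of the R2TP complex that HSP90 serves, had the lowest value of the list (−0.30 ± 0.34 SE). Fkbp5, an immunophilin that binds MEEVD, was at 93.8 ± 7.88 RPKM in ZP3 Trim-away and 94.8 ± 12.5 RPKM in the buffer control (SD, n = 3 each), and was named after its values were seen.

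Of 12 heat shock factors and regulators of HSF1, 11 were in the table and 7 were tested, with no call by limma (0 at an unadjusted p under 0.05), 3 positive values, 0 and 1 without overlap on the higher and lower side (0% and 14.3%, beside 20.3% and 6.34% of all genes tested), and a median of −0.22. Hsbp1, which binds the trimer of HSF1 and dampens it, had 88.0, 95.5 and 88.5 RPKM in ZP3 Trim-away, against 71.3, 87.0 and 110.6 RPKM in the buffer control (log2 fold change 0.04 ± 0.17 SE, negative with each of the 3 other scalings). Hsf5, a heat shock factor of the germ line, was at 29.8 ± 4.23 RPKM in ZP3 Trim-away and 22.4 ± 7.12 RPKM in the buffer control (SD, n = 3 each; 0.44 ± 0.25 SE). Nedd4, a ubiquitin ligase known to act on HSF1, lay at −0.25 ± 0.26 (SE).

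The heat shock genes that HSF1 is known to activate held the 1 called gene. Of 15 genes, all were in the table and 9 were tested, 1 was called higher and 0 lower by limma (2 higher and 0 lower at an unadjusted p under 0.05), and 8 were positive. Over all genes tested 0.592% were called higher. Of the 9, 3 (33.3%) had no overlap on the higher and 0 on the lower side, beside 20.3% and 6.34% of all genes tested, and the median was 0.28. Serpinh1, which encodes the collagen chaperone HSP47, had 9.85, 16.4 and 11.6 RPKM in ZP3 Trim-away, against 0, 0 and 0.754 RPKM in the buffer control. The fitted log2 fold change was 3.47 ± 0.36 (SE, limma adjusted p = 0.0249, range over the alternatives 0.000391 to 0.213), and it depends on the pseudocount because 2 controls were at 0. Serpinh1 passed the filter of 1 RPKM only through its Trim-away values, as its mean in the buffer control was 0.251 RPKM. Its call as higher and its lack of overlap are therefore a description. It was called in 9 of 15 alternatives, and the fits without a call included those that left out Trim-away replicate 1, 2 or 3, with values of 3.62, 3.28 and 3.51, a pseudocount of 0.1 and no filter. The cumulus and granulosa markers Tnfaip6, Inha and Cyp11a1 were likewise above 0 in all 3 Trim-away libraries and at 0 in 2 or 3 of the controls. Of the same list, Cyp19a1 was lower without overlap, and Ptgs2, Inhba and Star overlapped between the groups. Genes above 0 were also more numerous over the whole table, with 18794 to 20316 in ZP3 Trim-away and 13202 to 14501 in the buffer control. The part of these differences in the Serpinh1 result was not tested. HSP47 works on procollagen in the endoplasmic reticulum. The inducible HSP70 genes Hspa1a and Hspa1b stayed at or under 0.128 RPKM in every library. They shared 62.3% and 56.6% of their windows with other genes, mostly each other, so reads between them may be missing from the table. Hspb1, Hspb8, Cryab and Bag3 stayed at or under 0.671 RPKM in every library. Dnajb1, the HSP40 that starts the HSP70 cycle, was the most abundant at 127.5, 112.4 and 140.3 RPKM in ZP3 Trim-away, against 89.8, 135.9 and 117.7 RPKM in the buffer control, with overlap (0.16 ± 0.17 SE, and −0.13 to −0.03 under the 3 other scalings). Hspd1, the mitochondrial HSP60, had the lowest value of the list (−0.00 ± 0.18 SE) and shared 34.8% of its windows.

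**Figure D5:**
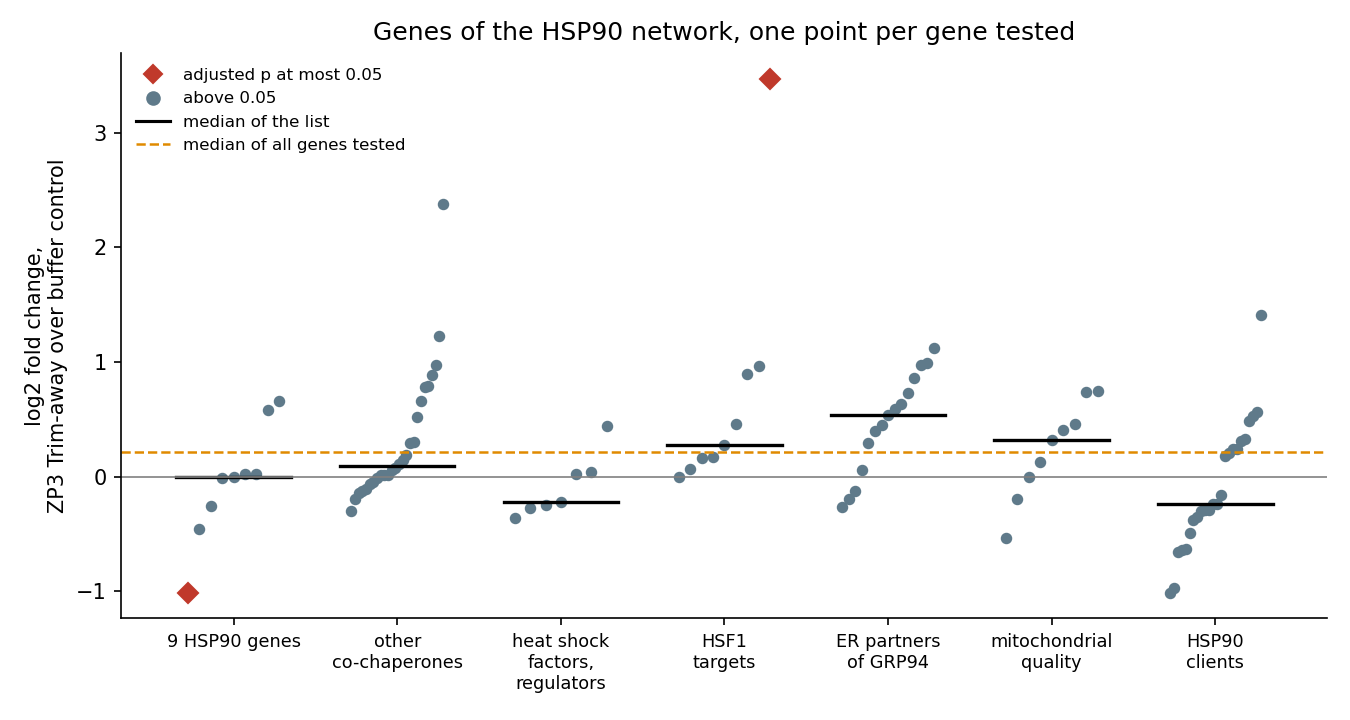
Log2 fold change, ZP3 Trim-away over buffer control, of every tested gene of the family and of the 6 lists, with genes at an adjusted p of at most 0.05 as red diamonds, the list medians as black lines and the median of all genes tested (0.22) dashed. The diamonds are Hsp90ab1 at −1.01 and Serpinh1 at 3.47, and the list medians run from −0.24 for the clients to 0.54 for the partners of GRP94.

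The partners of GRP94 in the endoplasmic reticulum had the highest median of the 6 lists. Of 16 genes, all were in the table and 15 were tested, with no call by limma at an adjusted p of 0.05. At an unadjusted p under 0.05, 7 were higher and 0 lower, beside 1942 of 9965 genes tested in either direction. Of the 15, 12 were positive, 7 (46.7%) had no overlap on the higher side, where 20.3% of all genes tested had none, and 0 on the lower side, where 6.34% of all genes had none, and the median was 0.54. A larger share, 9 of 15 (60%), had no overlap on the higher side among the zygote markers, whose median was 0.39. The difference between the median of the GRP94 partners and that of all genes stayed positive in all 16 alternatives, as did that of the zygote markers. For the HSP90 family, the heat shock factors with their regulators, and the clients, this difference stayed negative in all 16. Pdia6, a protein disulfide isomerase, was highest among those above 5 RPKM that were tested, at 24.3, 23.3 and 28.8 RPKM in ZP3 Trim-away, against 19.6, 15.0 and 6.01 RPKM in the buffer control (log2 fold change 0.99 ± 0.36 SE, limma adjusted p = 0.184, range over the alternatives 0.0182 to 0.446). Canx, the membrane lectin chaperone calnexin, had the highest mean over the 6 libraries and the lowest log2 fold change of those above 5 RPKM, at 105.9, 98.4 and 114.1 RPKM in ZP3 Trim-away, against 108.3, 114.5 and 125.5 RPKM in the buffer control. Hspa5, the HSP70 of the endoplasmic reticulum also called BiP, was singled out after its values were seen. It had 71.6, 79.6 and 86.7 RPKM in ZP3 Trim-away, against 52.8, 40.4 and 49.8 RPKM in the buffer control, without overlap (0.73 ± 0.15 SE, limma adjusted p = 0.0590). Hsp90b1 was at 0.472 ± 0.0527 of Hspa5 in ZP3 Trim-away and 0.547 ± 0.205 in the buffer control (RPKM ratio, SD, n = 3 each), with overlap.

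The promoter of Hsp90b1 carries the elements that GRP94 is known to share with its partners. The endoplasmic reticulum stress element, bound in mammals by NF-Y with ATF6 or XBP1, was searched as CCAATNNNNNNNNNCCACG and, on the other strand, as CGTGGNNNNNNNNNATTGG, in the 300 bases from 250 before to 50 after the start of each gene (RefSeq, GRCm38.p6). It occurred in 39 of 32851 promoters (0.119%). Promoters were matched for 6 of the 9 members and not for Hsp90aa1, Hsp90ab1 and Hsf1. Hsp90b1 was the only one of the 6 with a match, and it had 2, shown with the element in capitals, the first at chr10:86705632-86705661 and the second, in the other orientation, at chr10:86705527-86705556, both read on the minus strand.
Hsp90b1 upstream element: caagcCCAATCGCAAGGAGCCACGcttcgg
Hsp90b1 downstream element: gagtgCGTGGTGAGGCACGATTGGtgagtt
The elements begin at positions −212 and −107 from the start. Of 14 partners of GRP94 with a promoter, 5 had the element, namely Calr, Canx, Dnajc3, Hspa5 and Pdia6. Of these, Calr, Hspa5 and Pdia6 had no overlap on the higher side, and Canx and Dnajc3 overlapped. Pdia4, Cnpy2, Cnpy4 and Manf, partners not among these 5, had no overlap on the higher side either. The share over all genes tested was 20.3%, and a link between the element and the values was not tested. The heat shock element was searched as 3 units, GAANNTTCNNGAA or TTCNNGAANNTTC, and occurred in 198 promoters (0.603%), in 0 of the 6 members, in 3 of 13 targets of HSF1 (Hspd1, Hspe1 and Hsph1) and in 1 of 27 other co-chaperones (Chordc1). A match describes these letters in this window and shows no binding.

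Of 11 mitochondrial protein quality genes beside Trap1, all were in the table and 9 were tested, with no call by limma (2 higher and 0 lower at an unadjusted p under 0.05), 6 positive values and a median of 0.32. Of the 9, 2 (22.2%) had no overlap on the higher and 0 on the lower side, beside 20.3% and 6.34% of all genes tested. Hspd1 and Hspe1 stand in this list and in that of the HSF1 targets. Grpel1, which releases nucleotide from mitochondrial HSP70, had the highest value above 5 RPKM (0.74 ± 0.31 SE), at 23.1, 25.6 and 21.2 RPKM in ZP3 Trim-away, against 13.6, 21.9 and 8.09 RPKM in the buffer control. Dnaja3, the J protein of mitochondrial HSP70, had the lowest (−0.53 ± 0.30 SE), at 17.2, 15.3 and 22.2 RPKM in ZP3 Trim-away, against 36.7, 15.9 and 31.7 RPKM in the buffer control. Both overlapped between the groups.

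Of 32 client genes, 30 were in the table and 24 were tested, with no call by limma (1 higher and 4 lower at an unadjusted p under 0.05), 10 positive values and a median of −0.24. Of the 24, 3 (12.5%) had no overlap on the higher and 3 (12.5%) on the lower side, beside 20.3% and 6.34% of all genes tested. Chek1, a checkpoint kinase and the most abundant client, had 298.7, 279.4 and 261.5 RPKM in ZP3 Trim-away, against 223.1, 226.6 and 261.3 RPKM in the buffer control; the groups all but touched (log2 fold change 0.24 ± 0.11 SE, limma adjusted p = 0.267, range over the alternatives 0.0203 to 0.894). Fyn, a kinase of the Src family, had the lowest value, at 7.58, 4.12 and 8.75 RPKM in ZP3 Trim-away, against 22.8, 15.0 and 8.27 RPKM in the buffer control (−1.01 ± 0.38 SE, limma adjusted p = 0.199, range over the alternatives 0.00280 to 0.552). The size of the Fyn value was close to that of Hsp90ab1, but its groups overlapped and its SE was larger. Egfr, a growth factor receptor, was at 18.8 ± 1.40 RPKM in ZP3 Trim-away and 13.3 ± 6.48 RPKM in the buffer control (SD, n = 3 each; 0.56 ± 0.30 SE), with overlap.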

How the data were processed

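Zygote pools (3 ZP3 Trim-away, 3 buffer control, grouped by the labels) were sequenced with 72-base single-end reads from a low-input poly(A) kit. The authors deposited RPKM values, computed from htseq-count counts after FastQC 0.11.9, Trimmomatic, HISAT2 and SAMtools; versions of the other tools: not given in the sources used here. Identifiers with the same symbol were averaged by the authors. The labels name GRCm39 and the paper GRCm38; coordinates printed are those of GENCODE M21 or RefSeq on GRCm38. Strand use in the counting is not stated, and overlapping genes are uncertain. In the deposited table, control replicates 2 and 3 were never below 0.5 times replicate 1 over 13202 genes and exactly 0.5 times in 2059 and 2090, so a library was recovered from each by doubling the column and subtracting replicate 1; 0 values became negative. RPKM times exon length and total gave reads within 0.01 of a whole number for 94.8% to 96.0% of values, which also gave the library totals.

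Groups were compared with limma 3.58.1 (R 4.3.3, trended prior) on log2(RPKM + 1) in the 9965 genes averaging 1 RPKM or more, two-sided, Benjamini-Hochberg at 0.05; the scale understates changes of low genes. Whether the pools came from separate collections is not stated in the labels; a p-value then covers only the variation among the 6 pools, which could be technical. The fit took a shared variance per gene for both groups, although the spread was commonly wider in the buffer control. The alternative with sample weights weighted the libraries by group. The fit was tested on simulated data. Tables and sequences were handled in Python 3.11.15 with pandas 2.3.3, numpy 2.4.6, Biopython 1.88 and matplotlib 3.10.9. The members and lists were chosen with earlier results of these data known. Genes named from each list were those called, the most abundant, and the highest and lowest log2 fold change among tested genes of at least 5 RPKM, with exceptions stated. Alternatives were the columns as deposited, pseudocounts of 0.1 and 5, no filter and a mean of 10 RPKM, median ratio, quantile and exon length corrections, sample weights, a replicate block and leaving out each library.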

Additional observations from a re-analysis of the deposited data

How the results depend on the processing

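Of 9965 genes, 63 were called, 59 of them higher. The count was 3707 with the columns as deposited (2537 higher, 1170 lower), 19 and 145 with a pseudocount of 0.1 and 5, 0 by limma without a filter (3323 at an unadjusted p under 0.05), 368 at a mean of 10 RPKM, 12 with median ratio scaling, 24 with quantile normalization and 35 with the exon length trend removed, where 13 were higher and 22 lower. Leaving out 1 library gave 0 to 300 genes, with 0 calls by limma whenever a Trim-away library was left out (1100 to 1238 at an unadjusted p under 0.05). Same-numbered libraries did not deviate together (r of −0.06, 0.02 and −0.05). With 3 libraries per group these values cannot show whether same-numbered pools shared a collection. The replicate block gave 0 genes by limma (1733 at an unadjusted p under 0.05), 0 of the 9 family genes and 0 list genes (2 and 17 at an unadjusted p under 0.05). Hsp90ab1 and Serpinh1 were thus not called with the replicate block, at the same values of −1.01 and 3.47. Of the 9 family genes, 1 was called, 4 with the columns as deposited, 0 without a filter and 0 to 1 without single libraries. The 6 lists had 1 call, and 33 with the columns as deposited, 0 and 2 with a pseudocount of 0.1 and 5, 0 without a filter, 6 at a mean of 10 RPKM, 2 with sample weights and 0 to 3 without single libraries.

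Values near 0 changed sign, among them Ptges3 (−0.36 to 0.09 over the alternatives), Cdc37 (−0.15 to 0.17), Ahsa1 (−0.21 to 0.06) and Hsp90aa1 (−0.25 to 0.09). With median ratio scaling, quantile normalization and the length trend removed, Nudc was at −0.076, −0.070 and −0.33, Hsbp1 at −0.15, −0.16 and −0.37, and Dnajb1 at −0.028, −0.031 and −0.13, and Zp3 was at −0.10 with the length trend removed. Without single libraries Nudc ran from −0.10 to 0.24, Hsbp1 from −0.11 to 0.20, Dnajb1 from −0.003 to 0.29 and Hspd1 from −0.16 to 0.13, and Zp3 from 0.15 to 0.56. The cause was not tested. The median of all genes was 0.07, −0.01 and −0.02 under these scalings, against 0.22. Depth limits genes near 0.2 RPKM, not the family, which had at least 218 reads in each library.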
